A study of Mus musculus with 12 samples.

Results

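The genes described are 9 members of 2 families of transcription factors, out of 24421 genes in the expression table. They are the AP-1 genes Fos, Fosb, Fosl2, Jun, Junb and Jund and the NFAT genes Nfatc1, Nfatc2 and Nfatc3, chosen by name and measured in every library. RNA was sequenced from mouse embryonic thymocytes sorted into 3 populations, with 2 libraries for each of 6 groups and 12 in all. The KO embryos were Rag1KO Bcl6fl/fl LckCre+, and the control embryos were Rag1KO Bcl6fl/fl LckCre-, both on C57BL/6. LckCre is a recombinase transgene driven by the promoter of Lck, a gene of the T lineage, and floxed Bcl6 is its target. All groups lacked Rag1, so none of the cells could rearrange an antigen receptor gene. CD25 cells were sorted as CD25-positive from thymi that were not stimulated. ISP cells (CD4-negative, CD8-positive) and DP cells (positive for both) were sorted from thymi cultured for 2 days with anti-CD3 antibody at 1 µg/ml, a stimulus that stands in for receptor signalling. Most labels give the stage as E16.5 and the treatment protocol gives E17.5. Nothing in the labels ties the 2 libraries of each group to different embryos or cultures, so the p-values measure only the spread between these samples, which may be technical. Carrying Cre and losing Bcl6 cannot be told apart in this design, nor can the step out of the CD25 population and the anti-CD3 culture.

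AP-1 is a dimer of a Fos and a Jun protein, or of 2 Jun proteins. In T cells a receptor signal induces its genes through MAP kinases, and many of them are immediate early genes, which respond without new protein synthesis. NFAT proteins wait in the cytoplasm until a rise in calcium activates the phosphatase calcineurin, which lets them enter the nucleus. NFAT and AP-1 bind many T cell promoters side by side, and both activities are regulated after translation, which RNA levels do not show. On GRCm38 Fos lies at chr12:85473890-85477273, Fosb at chr7:19302696-19310051, Fosl2 at chr5:32135801-32157842 and Jun at chr4:95049034-95052222. Junb lies at chr8:84974484-84978718, Jund at chr8:70698949-70700616, Nfatc3 at chr8:106058840-106130537, Nfatc2 at chr2:168476410-168601657 and Nfatc1 on chromosome 18.

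The libraries held between 9658167 and 14228673 reads in genes, recovered from the step sizes of the deposited values. Levels are in RPKM, reads per kilobase of gene and per unit of library size, on the gene lengths that the deposited values imply. These differ from the annotated exon bases for some members, with 2878 against 1668 for Jund and 6014 against 11726 for Nfatc3, so the order of levels between genes depends on the gene model. Sorting genes followed the titles. Il2ra, which encodes CD25, stood at 538 to 603 RPKM in CD25 libraries and at 14.5 to 44.7 RPKM in the other 8. Cd4 stood at 191 to 344 RPKM in libraries titled DP and at 13.9 to 20.5 RPKM in those titled ISP. However, 6 of the 8 anti-CD3 libraries carry a sequencing library name whose population or genotype is at odds with the title. Groups follow the titles here. Under the library names every DP against ISP call below is lost, and the genotype results in ISP and DP change as given with them. By those names every library titled ISP is a control and every library titled DP is KO. A genotype contrast in ISP or DP under them therefore sets libraries titled DP against libraries titled ISP, which differed in Cd4 as above. Bcl6 was not lower in libraries labelled KO. It had 2.01 and 1.63 RPKM in the KO-labelled CD25 libraries, against 1.82 and 1.49 RPKM in controls. It had 18.9 and 25.1 RPKM in the KO-labelled ISP libraries, against 11.9 and 11.6 RPKM in controls. It had 87.7 and 111.3 RPKM in the KO-labelled DP libraries, against 72.5 and 70.0 RPKM in controls. The value covers the whole gene and does not show whether the floxed part was lost, and every direction by genotype below rests on the label. Since these are bulk samples, fewer cells that express a gene and less RNA per cell cannot be told apart.

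The RNA of the AP-1 and NFAT genes was rebalanced between the populations. Fos, Junb, Jund and Nfatc3 were higher in ISP than in CD25 libraries, and Jun, Nfatc1 and Nfatc2 were lower. Fos, Jund and Nfatc3 were higher again in DP libraries, as titled. Between genotypes only Nfatc2 and Nfatc3 passed the test, both lower in KO-labelled DP libraries. Differences are on the scale of log2(RPKM + 1), which understates the change of low genes, and were tested with limma and a Benjamini-Hochberg adjustment over all genes tested. A gene is called when its adjusted p is under 0.05.

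**Figure D1:**
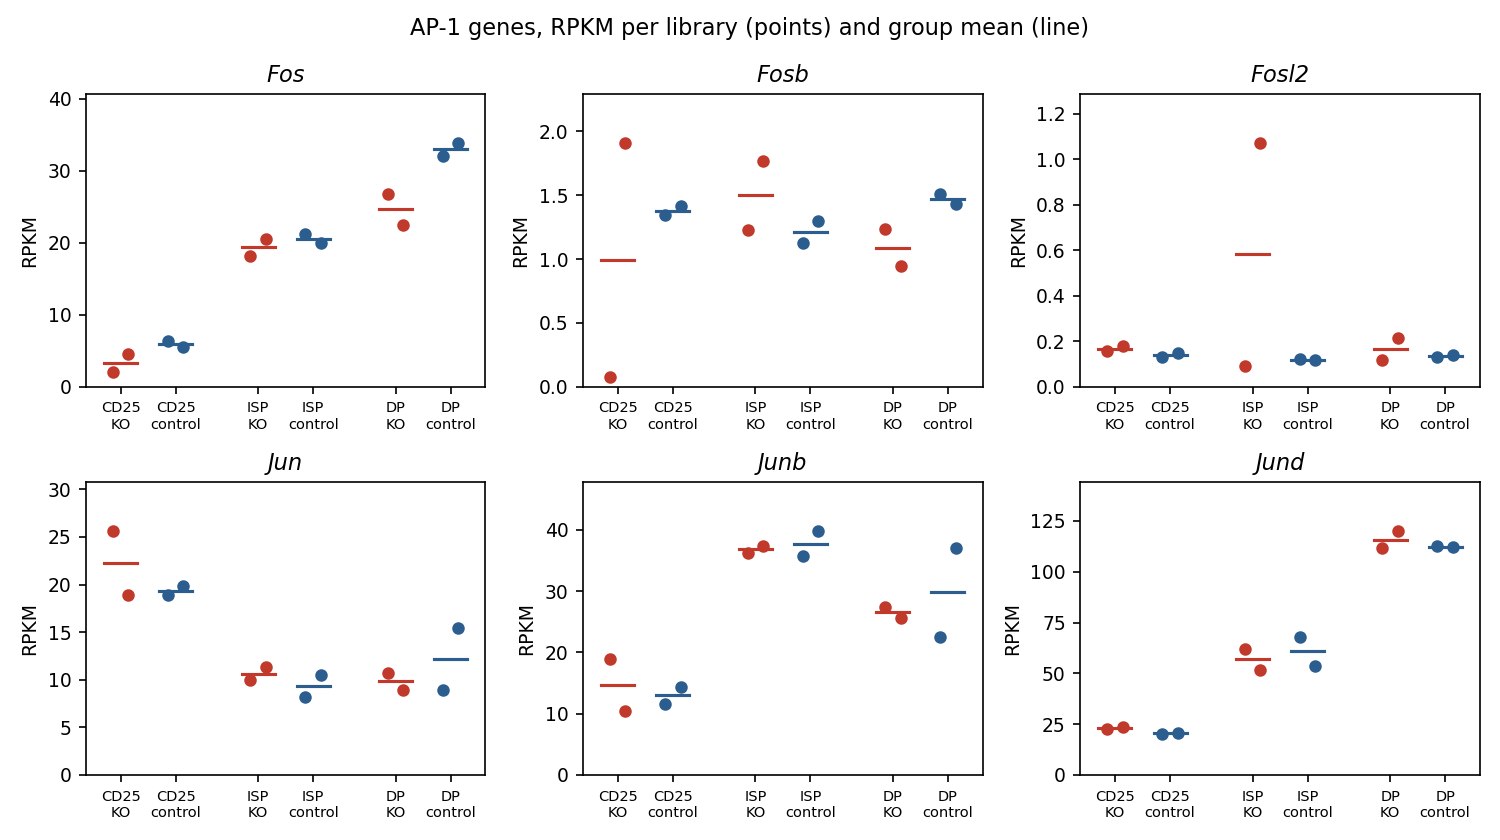
RPKM of the 6 AP-1 genes in each library, with the 6 groups on the x axis, KO in red and control in blue, 1 point per library and a line at the group mean. Each panel has its own linear axis from 0. Fos and Jund stand highest in DP libraries and Jun in CD25 libraries.

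Fos encodes the classic inducible partner of the Jun proteins. Fos had 2.02 and 4.58 RPKM in KO-labelled CD25 libraries and 6.29 and 5.50 RPKM in CD25 controls. In ISP cells it had 18.2 and 20.5 RPKM in KO-labelled libraries and 21.2 and 19.9 RPKM in controls. In DP cells it had 26.8 and 22.5 RPKM in KO-labelled libraries and 32.1 and 33.9 RPKM in controls. The 3 populations did not overlap, and each was above the one before it. The mean over both genotypes was 19.96 ± 1.32 RPKM in ISP and 4.60 ± 1.86 RPKM in CD25 libraries (SD, n = 4 each), a ratio of 4.34. On the log2 scale the ISP minus CD25 difference was 1.98 with a standard error of 0.15, and the limma adjusted p was 2.42e-07. DP libraries averaged 28.8 ± 5.17 RPKM (SD, n = 4), and the DP minus ISP difference was 0.49 with a standard error of 0.15 (limma adjusted p = 0.0100).

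Fosb and Fosl2, which encode other Fos family proteins, were low. Fosb had 0.0729 and 1.91 RPKM in KO-labelled CD25 libraries, which are 3 and 97 reads, and 1.35 and 1.41 RPKM in CD25 controls. The 8 anti-CD3 libraries lay between 0.947 and 1.76 RPKM for Fosb, within the span of the CD25 libraries, and no population comparison called it. Both ends of that span are KO-labelled CD25 libraries, and leaving out either changed the call or the sign of the ISP minus CD25 difference. Without library 2, Fosb was called higher in ISP than in CD25 (0.55, limma adjusted p = 0.00329). Without library 1 the difference was -0.17 and was not called (limma adjusted p = 0.270). The lone KO sample is assumed to vary like the other groups. Fosl2 had 0.0910 to 0.215 RPKM in 11 libraries, on 7 to 14 reads each. The exception was KO-labelled ISP library 2, with 1.07 RPKM on 83 reads, so Fosl2 passed the low-value filter in 1 library and was not tested.

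Jun encodes the founding member of the Jun proteins and was highest before stimulation. Jun had 25.6 and 18.9 RPKM in KO-labelled CD25 libraries and 18.9 and 19.9 RPKM in CD25 controls. It had 9.92 and 11.4 RPKM in KO-labelled ISP libraries and 8.19 and 10.5 RPKM in ISP controls. It had 10.7 and 8.98 RPKM in KO-labelled DP libraries and 8.97 and 15.4 RPKM in DP controls. Every anti-CD3 library lay below every CD25 library, while ISP and DP overlapped. The ISP minus CD25 difference was -0.99 with a standard error of 0.15 (limma adjusted p = 8.63e-05). The DP minus ISP difference was 0.10 with a 95% interval from -0.21 to 0.42 (limma adjusted p = 0.538).

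Fos and Jun, which moved in opposite directions, also differ in short DNA motifs before their starts. AP-1 binds TGANTCA, the related CREB and ATF factors bind TGACGTCA or its first part TGACG, and TGACATCA is an AP-1-like element known from the Jun promoter. RefSeq promoter windows of 300 bases (250 before the start and 50 after, build GRCm38.p6) were used for 8 of the 9 members, with 10 windows in all. Nfatc1 was left out of the promoter search. The 250 bases before the start are shown for both genes on the gene's strand, with TGACG, TGACATCA and TATAAA in capitals. The Fos stretch is chr12:85473640-85473889 (plus strand) and the Jun stretch is chr4:95052223-95052472 (minus strand).
Fos: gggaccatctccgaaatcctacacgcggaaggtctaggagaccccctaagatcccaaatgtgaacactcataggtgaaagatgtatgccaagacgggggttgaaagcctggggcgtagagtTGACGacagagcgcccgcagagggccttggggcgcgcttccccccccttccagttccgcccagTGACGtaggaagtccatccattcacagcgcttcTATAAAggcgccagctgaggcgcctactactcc
Jun: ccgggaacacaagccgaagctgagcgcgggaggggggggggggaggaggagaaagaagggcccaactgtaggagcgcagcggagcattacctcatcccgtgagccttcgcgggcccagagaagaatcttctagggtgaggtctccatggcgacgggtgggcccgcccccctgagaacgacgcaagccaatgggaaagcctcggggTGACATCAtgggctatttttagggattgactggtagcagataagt
The Fos window held TGACG at 2 places and 1 TATA box (TATAAA). The Jun window held the AP-1-like element once and lacked the TATA box letters. Both strands were searched in all windows, and overlapping matches were counted. TGACG occurs in 20.8% of all 32851 promoter windows, the AP-1-like element in 3.62% and the TATA box in 13.6%. Of the other members, Fosb, Junb and 1 Nfatc3 window held TGACG, and Junb and 1 Nfatc2 window held the TATA box. GGAAA, the core that NFAT binds, occurs in 61.3% of windows and was found for Jun, Nfatc2 and Nfatc3. TGANTCA (7.81% of windows) and TGACGTCA (1.79%) were in none of the 10, and TGACG is part of the second of these. A match is a description of letters and not a bound site.

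Junb encodes a Jun protein that is itself induced by stimuli. Junb had 18.9 and 10.5 RPKM in KO-labelled CD25 libraries and 11.6 and 14.3 RPKM in CD25 controls. It had 36.2 and 37.4 RPKM in KO-labelled ISP libraries and 35.7 and 39.8 RPKM in ISP controls. It had 27.4 and 25.7 RPKM in KO-labelled DP libraries and 22.5 and 37.1 RPKM in DP controls. All ISP libraries lay above all CD25 libraries, and 3 of the 4 DP libraries lay between them, with DP control 2 inside the ISP range. The ISP minus CD25 difference was 1.40 with a standard error of 0.17 (limma adjusted p = 1.46e-05). The DP minus ISP difference was -0.42 with a standard error of 0.17 (limma adjusted p = 0.0424). Of the 12 fits that left out 1 library, those without a CD25 library could not change this difference, and they kept the call. Of the others, only the fit without DP control 2 kept the call (-0.59), and 7 lost it. These left out any of the 4 ISP libraries (adjusted p from 0.0596 to 0.110), DP control 1 (0.194) or either KO-labelled DP library (0.0696 and 0.0975). It was also lost with the libraries rescaled to TPM (0.222) or to the upper quartile (0.0582), with no low-value filter (0.117), with the replicate block (0.0527) and under the library names, each value an adjusted p. Junb shares 173 of its 2301 annotated exon bases with Prdx2, a peroxiredoxin gene on the opposite strand at 288 to 427 RPKM. Strand use in counting is not given in the sources used here, so reads there cannot be told apart. Prdx2 averaged 399 RPKM in CD25, 401 RPKM in ISP and 314 RPKM in DP libraries. Its DP values (288 to 333 RPKM) all lay below its ISP values (387 to 422 RPKM), the same direction as the Junb difference. The part of Prdx2 in the Junb values was not tested.

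The 2 libraries with the highest Junb value in CD25 and in DP were also the highest for Jun there. They are KO-labelled CD25 library 1 and DP control 2. Hspa1b, a heat shock gene that responds to handling, had 1.57 RPKM in the first and 1.60 RPKM in the second, against at most 0.379 RPKM in the other 10 libraries. Hspa1b has a near-identical copy, Hspa1a, so its reads are uncertain. The list of 8 heat shock and handling genes as a whole was not higher in the groups of these libraries. It summed to 912 to 915 RPKM in KO-labelled CD25 libraries, against 937 to 944 RPKM in CD25 controls. In DP it summed to 433 to 463 RPKM in controls, against 567 to 612 RPKM in KO-labelled libraries. The part of handling in the Jun and Junb values was not tested.

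Jund encodes the Jun protein that is usually made without a stimulus, and its RNA climbed in steps. Jund had 22.6 and 23.5 RPKM in KO-labelled CD25 libraries and 20.2 and 20.7 RPKM in CD25 controls. It had 61.8 and 51.8 RPKM in KO-labelled ISP libraries and 67.9 and 53.8 RPKM in ISP controls. It had 111.4 and 120.0 RPKM in KO-labelled DP libraries and 112.7 and 111.9 RPKM in DP controls. The 3 populations did not overlap, and the 2 genotypes overlapped in ISP and DP cells. Jund differed between ISP and CD25 by 1.39 with a standard error of 0.07 (limma adjusted p = 1.07e-08). The DP minus ISP difference was 0.95 with the same standard error (limma adjusted p = 1.87e-07).

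**Figure D2:**
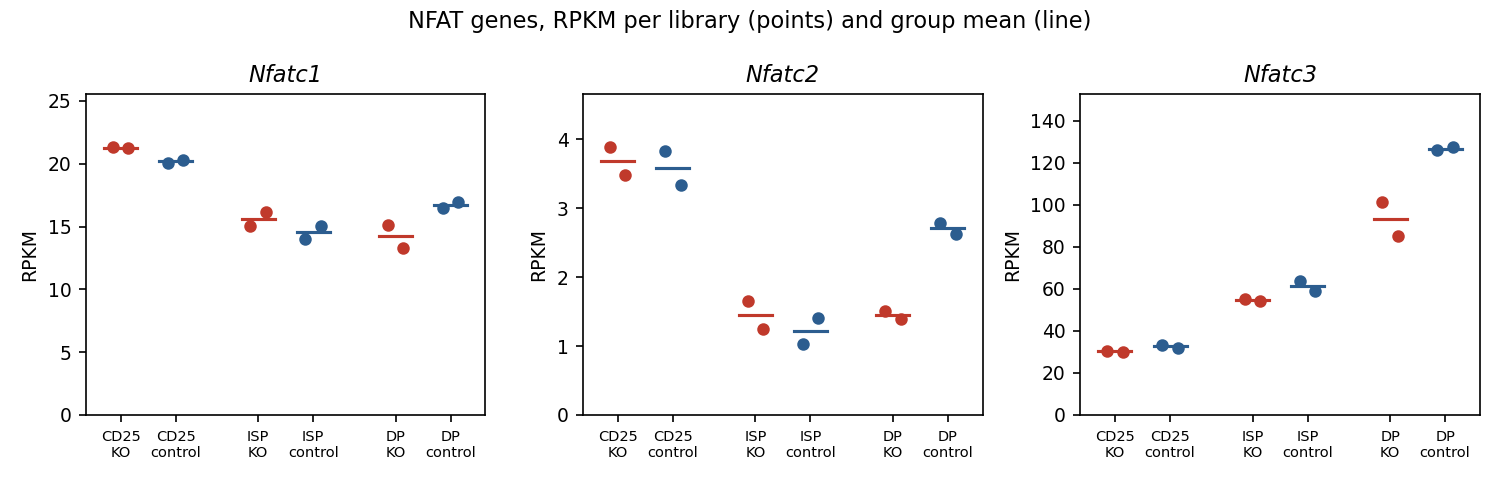
RPKM of the 3 NFAT genes in each library, with the 6 groups on the x axis, KO in red and control in blue, 1 point per library and a line at the group mean. Each panel has its own linear axis from 0. Nfatc3 stands highest in DP controls, and Nfatc2 in KO-labelled DP libraries lies at the level of ISP libraries.

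Nfatc1 encodes an NFAT protein known from early thymocytes and was highest in CD25 cells. Nfatc1 had 21.3 and 21.3 RPKM in KO-labelled CD25 libraries and 20.1 and 20.3 RPKM in CD25 controls. It had 15.0 and 16.2 RPKM in KO-labelled ISP libraries and 13.99 and 15.1 RPKM in ISP controls. It had 15.2 and 13.3 RPKM in KO-labelled DP libraries and 16.51 and 16.9 RPKM in DP controls. All anti-CD3 libraries lay below all CD25 libraries, and ISP and DP overlapped. For ISP minus CD25 it differed by -0.44 with a standard error of 0.06 (limma adjusted p = 3.10e-05), and for DP minus ISP by 0.03 with a 95% interval from -0.09 to 0.16 (limma adjusted p = 0.630).

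Nfatc2, which encodes an NFAT protein abundant in mature T cells, was the lowest of the 3. Nfatc2 had 3.88 and 3.48 RPKM in KO-labelled CD25 libraries and 3.84 and 3.34 RPKM in CD25 controls. It had 1.65 and 1.25 RPKM in KO-labelled ISP libraries and 1.03 and 1.41 RPKM in ISP controls. It had 1.51 and 1.39 RPKM in KO-labelled DP libraries and 2.79 and 2.62 RPKM in DP controls. Only the DP controls lay outside the ISP range among the DP libraries. The ISP minus CD25 difference was -0.99 with a standard error of 0.10 (limma adjusted p = 3.46e-06). The DP minus ISP difference over both genotypes was 0.38 with a standard error of 0.10 (limma adjusted p = 0.00530).

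Nfatc3 encodes the NFAT protein most abundant in double-positive thymocytes. Nfatc3 had 30.6 and 29.9 RPKM in KO-labelled CD25 libraries and 33.4 and 32.0 RPKM in CD25 controls. It had 55.1 and 54.0 RPKM in KO-labelled ISP libraries and 63.9 and 58.8 RPKM in ISP controls. It had 101.6 and 85.2 RPKM in KO-labelled DP libraries and 126.1 and 127.4 RPKM in DP controls. The populations did not overlap, and in each of them both KO-labelled libraries lay below both controls. The ISP minus CD25 difference was 0.86 with a standard error of 0.06 (limma adjusted p = 6.27e-08), and the DP minus ISP difference was 0.90 with the same standard error (limma adjusted p = 2.71e-08). Its overlapping neighbour on the opposite strand, Esrp2, had at most 1.96 RPKM.

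**Figure D3:**
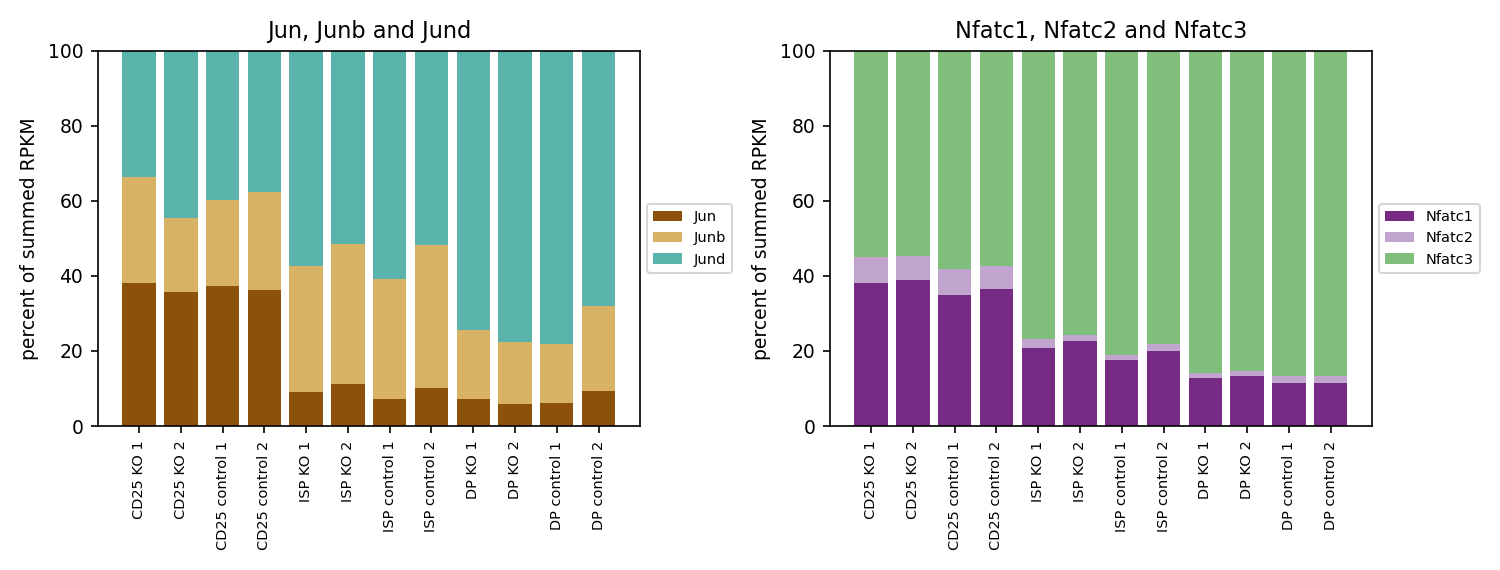
Share of the summed RPKM of Jun, Junb and Jund (left) and of Nfatc1, Nfatc2 and Nfatc3 (right) held by each gene, as stacked bars from 0 to 100 percent, 1 bar per library. Jund holds a mean of 74.6% of the Jun sum and Nfatc3 a mean of 86.2% of the NFAT sum in DP libraries.

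Within each family the makeup shifted to 1 gene. Of the summed RPKM of Jun, Junb and Jund, Jun held 36.8 ± 1.08% in CD25, 9.48 ± 1.68% in ISP and 7.14 ± 1.59% in DP libraries (SD, n = 4 each). Jund held 38.9 ± 4.50% in CD25, 55.3 ± 4.52% in ISP and 74.6 ± 4.64% in DP libraries. Junb had its largest share in ISP libraries, with a mean of 35.2%, against 24.2% in CD25 and 18.3% in DP. Nfatc1 held 37.2 ± 1.72% of the NFAT sum in CD25, 20.3 ± 2.05% in ISP and 12.2 ± 0.957% in DP libraries, and Nfatc3 held 56.3 ± 1.79%, 77.9 ± 2.31% and 86.2 ± 0.684%. Fos held 68.7% to 89.8% of the Fos family sum in CD25 libraries, 87.9% to 94.4% in ISP and 95.1% to 95.6% in DP. As an alternative chosen after seeing the data, the same reads were divided by annotated exon lengths, without a new count over those exons. The shares then shifted in the same direction but from other levels. Nfatc1 then held a mean of 52.0% of the NFAT sum in CD25 and 21.1% in DP libraries, and Jund held 54.3% of the Jun sum in CD25 and 85.5% in DP libraries. On the deposited scale, in CD25 libraries the highest level was that of Nfatc3, followed by Jund, Jun and Nfatc1, which overlapped each other. In DP libraries Jund and Nfatc3 led, with overlapping values, then Fos and Junb, which overlapped too. With the same reads divided by annotated lengths, Nfatc3 came to 16.1 RPKM in CD25 libraries, below Jund at 37.5 RPKM. In DP libraries it came to 56.5 RPKM, below Jund at 197 RPKM. These values mix reads counted on the deposited gene model with lengths from another. They show how far the order depends on the length used and are not measured levels.

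**Figure D4:**
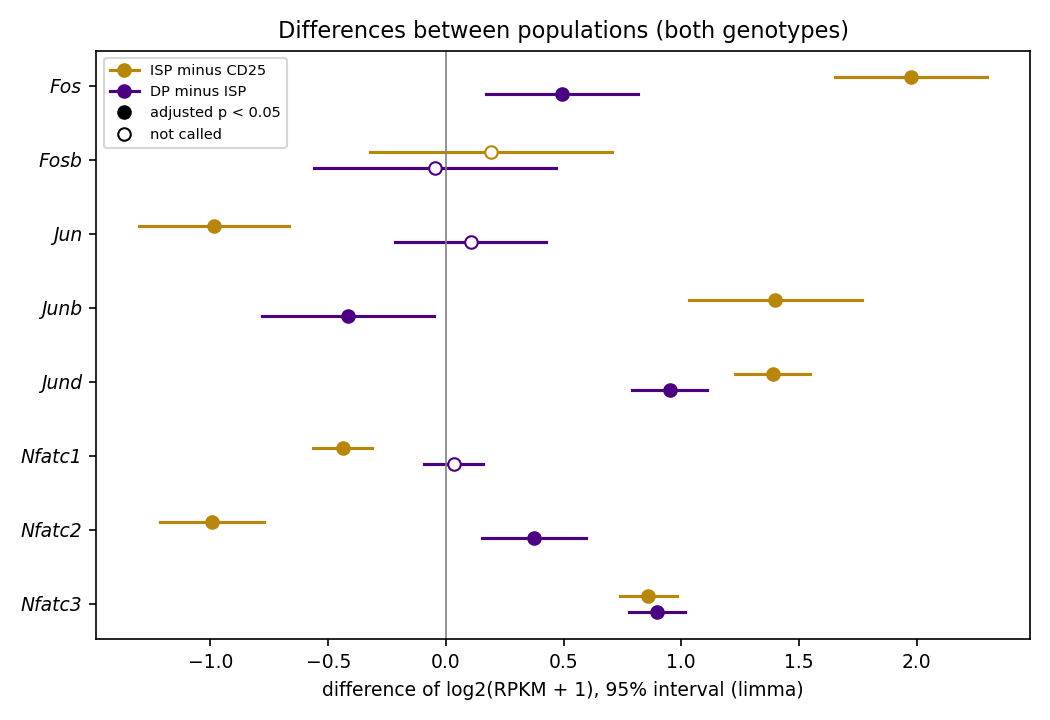
Difference of log2(RPKM + 1) between populations for the 8 tested members, with 95% limma intervals. The ISP minus CD25 points are in gold and the DP minus ISP points in purple, filled where the adjusted p is under 0.05. Jun, Nfatc1 and Nfatc2 lie left of 0 for ISP minus CD25, and Junb for DP minus ISP.

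Between ISP and CD25, 7 of the 8 tested members were called, 4 higher and 3 lower, where 63.9% of all 11288 tested genes were called, 33.1% higher and 30.9% lower. Between DP and ISP, 5 members were called, 4 higher and 1 lower, where 70.6% of all genes were called, 35.6% higher and 35% lower. DP against CD25 called 7 members (background 75.7%), as did the 8 anti-CD3 libraries against CD25 (background 72.1%). These shares do not set the families apart from other genes. The anti-CD3 comparison does not depend on the disputed names and gave 2.22 for Fos, 1.19 for Junb, 1.86 for Jund, 1.31 for Nfatc3, -0.93 for Jun, -0.42 for Nfatc1 and -0.81 for Nfatc2 on the log2 scale. The DP against ISP results do depend on them. Under the library names no member and no gene was called between DP and ISP, with 0.02 for Fos, 0.12 for Jund, 0.10 for Nfatc3, 0.03 for Nfatc2 and -0.20 for Junb. In the 4 anti-CD3 libraries whose 2 names share the population, Fos (0.51), Jund (1.07), Nfatc3 (0.99) and Junb (-0.62) were called, and Nfatc2 (0.41, limma adjusted p = 0.200) was not. Rescaling to TPM shifted the median difference of all genes by -0.12 for ISP minus CD25 and by 0.18 for DP minus ISP. The share of called genes that were higher was 51.7% for ISP against CD25 and 37.4% after rescaling, and for DP against ISP 50.4% and 63.5%. Under TPM, Nfatc1 was also called higher in DP than in ISP (0.21, limma adjusted p = 0.0107), a size near that shift.

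Markers of other cells moved with the populations, as did most genes. Over all tested genes, 63.9% were called between ISP and CD25 and 70.6% between DP and ISP. Of 8 tested markers of NK and innate lymphoid cells, 7 were higher and 1 lower in ISP than in CD25, and all 8 were lower in DP than in ISP. Their summed level was 607 to 800 RPKM in CD25, 1072 to 1317 RPKM in ISP and 115 to 230 RPKM in DP libraries. Heat shock and handling genes were higher in ISP than in CD25 for 5 of 6 tested and lower in DP than in ISP for 4 of 6. Epcam, from a list of 6 thymic epithelial markers, stood at 108 to 120 RPKM in CD25 and 13.8 to 21.8 RPKM in the other libraries. The 6 genes together summed to 107.9 to 120.1 RPKM in CD25 libraries, so nearly all of that sum was Epcam and the other markers were close to absent. Krt14 of the same list was at 0 in all 12. The part of these cells and genes in the AP-1 and NFAT values was not tested.

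Genes around the 2 families changed in both directions, as did genes at large. Between ISP and CD25, 33.1% of all tested genes were called higher and 30.9% lower. Between DP and ISP, 35.6% were called higher and 35% lower. The list counts here and in the paragraphs on MAP kinases and immediate early genes stand beside these shares, and no list was tested as a set. Of 16 genes of calcium entry and calcineurin, 8 were higher and 6 lower in ISP than in CD25, with a median difference of 0.16 against 0.01 over all genes. Itpr1, a calcium release channel of the endoplasmic reticulum, had 5.88 RPKM in ISP against 14.7 RPKM in CD25, and the store-operated channel gene Orai3 had 9.10 against 22.7 RPKM. Between DP and ISP 8 of the 16 were higher and 3 lower, with a median of 0.13 against 0.01 over all genes. Orai2, a partner of Orai3, had 49.9 RPKM in DP against 18.8 RPKM in ISP. Of 10 tested genes that restrain NFAT or calcineurin, 3 were higher and 3 lower in ISP than in CD25 (median -0.10), and 6 were higher and 1 lower in DP than in ISP (median 0.24). Tbc1d10c, which encodes a calcineurin inhibitor, had 357 RPKM in DP against 192 RPKM in ISP. Dyrk1a, Dyrk2 and Gsk3b, kinase genes whose products phosphorylate NFAT, were also higher in DP than in ISP.

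MAP kinases and SRF with its partners regulate Fos, in either direction. Of 18 such genes, 10 were higher and 5 lower in ISP than in CD25 (median 0.20). Between DP and ISP, 9 of the 18 were higher and 5 lower (median 0.18). Mapk3, encoding ERK1, had 38.0 RPKM in ISP against 23.3 RPKM in CD25. Elk3, encoding an SRF partner, had 19.9 RPKM in DP against 9.23 RPKM in ISP. Of 6 tested genes for turnover and partners of AP-1 proteins, 2 were higher and 2 lower in each of these comparisons, with medians of -0.10 and 0.05. Fbxw7, which encodes part of a ubiquitin ligase for Jun, had 10.4 RPKM in ISP against 14.6 RPKM in CD25. Of 9 tested AP-1 relatives, 3 were higher and 3 lower in both comparisons, with medians of -0.13 and 0.02. Jdp2, encoding a Jun dimerization partner, had 1.30 RPKM in DP against 5.33 RPKM in ISP. Nfat5, the relative that does not need calcineurin, had 5.38 RPKM in DP against 2.16 RPKM in ISP.

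All 12 tested immediate early genes other than AP-1 members changed between ISP and CD25, 7 higher and 5 lower, with a median of 0.73. Egr1 had 23.4 RPKM in ISP against 3.69 RPKM in CD25, Nr4a1 had 14.7 against 0.545 RPKM, and Zfp36, which encodes an RNA decay factor, had 30.1 against 3.94 RPKM. Dusp1, a phosphatase gene that restrains MAP kinases, was lower, at 27.1 against 38.8 RPKM. Between DP and ISP 7 were higher and 4 lower (median 0.25). Nfkbia had 267 RPKM in DP against 124 RPKM in ISP, while Nr4a1 had 4.16 against 14.7 RPKM. Most tested genes known as targets of NFAT with AP-1 were highest in ISP. Of 8 tested, 6 were higher and 1 lower in ISP than in CD25 (median 1.10), and 7 were lower in DP than in ISP (median -1.79). Xcl1, a chemokine gene, had 59.2 RPKM in ISP against 9.14 RPKM in CD25, and 2.19 RPKM in DP. Pdcd1, encoding PD-1, had 16.6 RPKM in ISP against 5.67 RPKM in CD25, and 2.49 RPKM in DP. Ctla4 was lower in ISP, at 22.9 RPKM against 108 RPKM in CD25. Ifng, Xcl1 and Fasl are also expressed by NK cells, whose markers moved the same way.

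**Figure D5:**
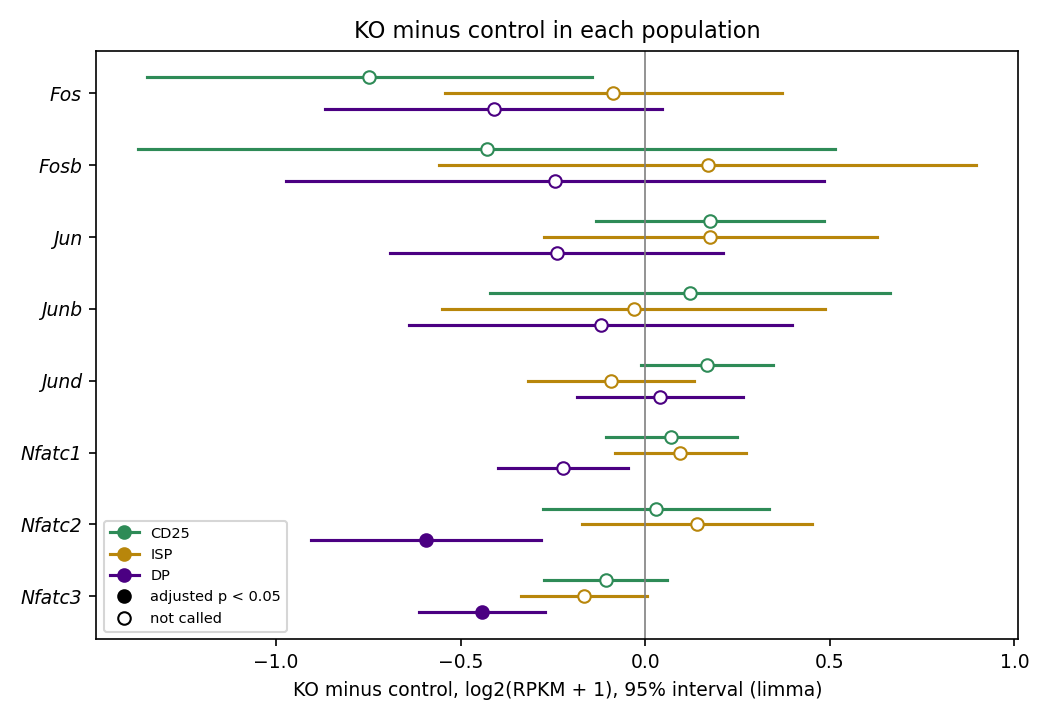
KO minus control difference of log2(RPKM + 1) for the 8 tested members in CD25 (green), ISP (gold) and DP (purple), with 95% limma intervals, filled where the adjusted p is under 0.05. Only Nfatc2 and Nfatc3 in DP are filled, and both lie left of 0.

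Between genotypes, 2 of the 8 tested members were called in DP cells, both lower in KO-labelled libraries, where 21.9% of all genes were called in either direction and 7.78% were lower. Nfatc3 averaged 93.4 ± 11.6 RPKM in KO-labelled and 127 ± 0.873 RPKM in control DP libraries (SD, n = 2 each). The difference was -0.44 with a standard error of 0.08 (limma adjusted p = 0.00275), and it stayed called when any 1 library was left out. Nfatc2 averaged 1.45 ± 0.0849 RPKM in KO-labelled and 2.71 ± 0.121 RPKM in control DP libraries (SD, n = 2 each). The difference was -0.59 with a standard error of 0.14 (limma adjusted p = 0.0128). This call was lost without DP control 1 (0.0787), DP control 2 (0.0529) or KO-labelled DP library 2 (0.0839), each value a limma adjusted p. Under the library names both differences turned round, to 0.92 for Nfatc3 and 0.41 for Nfatc2. There the libraries named KO are all titled DP and those named control are all titled ISP, so the titled genotypes are not compared.

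Nfatc1 in DP cells lay lower in both KO-labelled libraries, with a difference of -0.22 that was not called (limma adjusted p = 0.0705), but was called without KO-labelled DP library 1 (adjusted p = 0.0300). Fos in DP cells was -0.41 with a 95% interval from -0.87 to 0.05 (limma adjusted p = 0.184). The same Fos difference was called when either KO-labelled CD25 library was left out of the fit (adjusted p = 0.0210 and 0.0216) and when the 4 DP libraries were fitted alone (adjusted p = 0.0254). Under the library names the signs turned, to 0.55 for Fos (adjusted p = 0.101) and 0.12 for Nfatc1 (adjusted p = 0.402), and neither was called. Jund in DP cells was 0.04 with an interval from -0.18 to 0.27, but was called higher under the library names (0.78, limma adjusted p = 4.37e-05). Jun and Junb had overlapping libraries. TPM rescaling shifted the median of all genes by -0.10 in this comparison. The share of called genes that were higher was 64.5%, against 36.1% with TPM and 53.8% with upper quartile scaling. Nfatc1 was called under TPM (-0.33, limma adjusted p = 0.0223) and under upper quartile scaling (-0.26, limma adjusted p = 0.0448).

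In the same DP libraries Cd4 averaged 220 RPKM in KO-labelled and 341 RPKM in control libraries, and Il2ra 17.8 and 28.6 RPKM, both called lower. The myeloid markers summed to 69.9 to 76.2 RPKM in KO-labelled DP libraries, against 13.0 to 19.9 RPKM in controls, and 3 of 8 tested were higher. Most of that sum was Lyz2, with 43.8 and 65.2 RPKM in KO-labelled and 13.0 and 5.50 RPKM in control libraries. NK markers summed to 186 to 230 RPKM in KO-labelled DP libraries and 115 to 131 RPKM in controls, with 3 of 8 higher. Of 6 tested heat shock and handling genes, 4 were higher in KO-labelled DP libraries. Over all genes, 21.9% were called in this comparison, and 64.5% of those called were higher. Their part in the NFAT values was not tested.

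In CD25 cells no member was called between genotypes, where limma called 0.0188% of 10622 genes (2 genes, with 972 at an unadjusted p under 0.05). Fos came nearest, lower in both KO-labelled libraries with a difference of -0.75 and an interval from -1.35 to -0.15 (limma adjusted p = 0.465). With KO-labelled CD25 library 1 as the lone KO sample, Fos (-1.19, limma adjusted p = 2.96e-04) and Fosb (-1.15, limma adjusted p = 0.0268) were called. Without that library, the Fos difference was -0.30 and the Fosb difference 0.29. That library also had 8.39 RPKM of Egr1, against 0.678 to 2.97 RPKM in the other CD25 libraries, so its early genes did not all lie to the same side.

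In ISP cells no member was called, where 0.354% of all genes were called (40 genes). The intervals ran from -0.54 to 0.37 for Fos and from -0.34 to 0.004 for Nfatc3. Under the library names Jund (1.12) and Nfatc3 (0.87) were called higher in libraries named KO, which are titled DP, than in those named control, which are titled ISP. Fos was 0.43 there and not called. The KO minus control difference itself was compared between populations. No member was called for DP minus ISP, where 4.2% of genes were called. Nfatc2 had the largest such difference among the members, -0.73 with a standard error of 0.20 (limma adjusted p = 0.0647). Without KO-labelled DP library 1, Nfatc3 was called (-0.40, limma adjusted p = 0.0245). For ISP minus CD25 limma called no member and none of the 11288 genes (1105 had an unadjusted p under 0.05, and voom on recovered reads called 19). Under the library names that comparison called Fos (1.18, limma adjusted p = 0.0352), Jund (0.95) and Nfatc3 (0.98).

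Between genotypes in DP cells, 21.9% of all tested genes were called. Among the pathway lists, those of NFAT restraint and NFAT with AP-1 targets had no call there (0 of 10 and 0 of 8 tested). Their medians were -0.05 and -0.05, against 0.00 over all genes. Of the 16 calcium and calcineurin genes, 4 were higher and 2 lower in KO-labelled DP libraries (median 0.04). Calm2 had 890 RPKM in KO-labelled and 709 RPKM in control libraries, while Plcg1, a phospholipase gene of receptor signalling, had 33.1 and 43.0 RPKM. Of 12 tested immediate early genes, 2 were lower, Btg2 with 178 and 226 RPKM and Zfp36 with 65.3 and 89.8 RPKM. Of 9 tested AP-1 relatives, 1 was higher and 1 lower in KO-labelled DP libraries (median -0.07). Batf, which pairs with Jun proteins, had 8.74 RPKM in KO-labelled and 6.15 RPKM in control DP libraries. In ISP cells the only called gene of these lists was Tnfrsf9, an activation marker, with 8.65 and 11.3 RPKM in KO-labelled libraries and 4.41 and 4.79 RPKM in controls (0.96, limma adjusted p = 0.0218).

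Genes whose pattern over the 12 libraries was most like a member's were found by Pearson's r of log2(RPKM + 1) among 10672 genes. All points share the 3 populations, so these values describe and carry no test. Nfatc3 was followed most closely by Map4 (r = 0.996), Cerk and Cd27, and Jund by Endou (0.995), Edem1 and S100a13. Nfatc2 was followed by Rnf216 (0.993), Mtm1 and Arap1. Fos was followed by Sh2d1a (0.977), Bambi-ps1 and Sp1, and Junb by Lactb (0.971), Lypla2 and Egr1 (0.950). Jun was followed by Glt8d2 (0.951), Nol4l and Tcf25, and Nfatc1 by Tcf25 (0.968), Tbc1d9b and Dynlt3. Fosb had no gene closer than Htatip2 (0.751), ahead of Taf15 and Tagln.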

How the data were processed

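Gene-level RPKM values were made and deposited by the authors. The unit is not named in the file and was read from the values, whose low steps depend on library and gene length. BWA and GRCm38 are named per the submitters' processing notes, while counter, annotation, versions, filters and strand use are not given in the sources used. Reads were recovered from the steps with the smallest length per gene at which all its values were whole within 0.02 reads. Such a length was found for every gene above 0 (169595 values), so wholeness follows from the search and is no check on the reads. In some libraries the recovered sum exceeded the library size that the steps imply, with 9658167 against 9508841 in KO-labelled DP library 2. Counting error from these read numbers leaves out the spread between samples.

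Groups followed the titles. Values were tested as log2(RPKM + 1) by limma 3.58.1 (R 4.3.3, intensity trend), keeping genes that reached 1 RPKM in 2 or more libraries. A fit of 6 groups over all 12 libraries (11288 genes, 6 residual degrees of freedom) gave every comparison except the genotypes in CD25, for which only the CD25 libraries entered (4 libraries, 10622 genes, residual degrees of freedom 2). Names in the form of dates (27) were left out. Adjustment was Benjamini-Hochberg over all genes tested. The steps were tested on simulated data.

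The members and gene lists were chosen with earlier results of these data known. Named genes were the 9 members, up to 5 genes per pathway list with the smallest p, the sorted surface genes and the 3 most similar genes per member; Bcl6, Prdx2, Esrp2, Hspa1b, Lyz2, Epcam and Krt14 were added after their values were seen. Positions are from GENCODE M21 on GRCm38, and promoters from RefSeq (GRCm38.p6). Recovered reads of the replicates of a group differed beyond sampling noise, with a chi-square per degree of freedom from 3.26 to 7.11. Their r on the log2 scale was 0.992 to 0.994. Alternatives changed the pseudocount, low-value filter, scaling, test, libraries in the fit, grouping and replicate block, and left out each library. Annotated gene lengths were tried as well, only as a divisor of the same reads, an alternative chosen after seeing the data. Python 3.11.15, pandas 2.3.3, numpy 2.4.6 and matplotlib 3.10.9 made the tables and plots.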

Additional observations from a re-analysis of the deposited data

Results flagged for a closer look

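With 27 sets of 4 libraries examined (9 genes in 3 populations), 3 had a highest library far from the other 3, by a criterion that chance meets in about 1 set in 20. Fosl2 in KO-labelled ISP library 2 stood at 1.07 RPKM, against at most 0.121 RPKM in the other ISP libraries. Jun in KO-labelled CD25 library 1 stood at 25.6 RPKM, against 18.9 to 19.9 RPKM in the other CD25 libraries. Jund in KO-labelled DP library 2 stood at 120.0 RPKM, against 111.4 to 112.7 RPKM in the other DP libraries. Nfatc1 lay higher in both KO-labelled CD25 libraries than in both controls and lower in both KO-labelled DP libraries, where the mean difference was -2.51 RPKM. That contrast of DP with CD25 was not tested. Neither Nfatc1 difference was called on its own, with a limma adjusted p of 0.822 in CD25 and 0.0705 in DP.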

How the results depend on the processing

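Over all alternatives and left-out libraries, 1386 member results kept their direction and side of the threshold, 18 gained and 20 lost a call, and 6 changed sign with a call before or after. Another 56 changed sign and were called neither before nor after, 17 of them by library name and 31 with a library left out. These totals include fits that could not change the difference, such as those that left out a library outside the comparison. They also pool uncalled results and comparisons that share libraries, so they do not measure how stable the calls are. The number of members called for ISP or anti-CD3 cells against CD25 and for DP against CD25 stayed between 6 and 8. Grouping by library name called 2 members by genotype in ISP, 0 for DP against ISP, and 3 for the genotype difference of ISP minus CD25, where Fos (1.18) gained a call. By genotype in DP, Jund (0.78) gained one. It reversed Jund (1.12) and Nfatc3 (0.87) by genotype in ISP, Nfatc2 (0.41) and Nfatc3 (0.92) by genotype in DP, and Jund (0.95) and Nfatc3 (0.98) for ISP minus CD25. By genotype in DP, 1 member was called with at least 5 RPKM required, 4 with voom on recovered reads, which added Fos and Nfatc1, and 1 to 3 when a library was left out. By genotype in CD25, 0 to 2 members were called when a library was left out. For the genotype difference of DP minus ISP, voom called 1 member, Nfatc2, and leaving out a library gave 0 to 1. By library name, the genotype contrasts in ISP and DP set libraries titled DP against libraries titled ISP. Requiring at least 5 RPKM removes Nfatc2 from the test. The cause of the other changes was not tested.

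Over all genes, the genotype calls in CD25 were 2, and 1 to 93 under alternatives (14 with voom, 93 without KO-labelled library 2). In ISP they were 40, and 6 to 67 with 181 by voom and 5495 by library name. In DP they were 2472, and 844 without KO-labelled library 2, 1106 without control 1, 1176 without control 2 and 5612 by library name. DP against ISP called 7971, 0 by library name and 5101 in the 4 libraries whose 2 names share the population. The genotype difference of ISP minus CD25 called 0, and 0 to 3 with 19 by voom and 3362 by library name. That of DP minus ISP called 474, 64 to 1051 when a library was left out, 185 with no filter, 241 with TPM (71.4% of them higher, against 87.6%) and 0 by library name.

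The replicate numbers did not pair the samples. Deviations of same-numbered libraries correlated between -0.066 and 0.12 over 15 pairs of groups, with 1 over 0.1. With the numbers as a replicate block, DP against ISP called 4 members, losing Junb (adjusted p = 0.0527), and no other member call changed. Depth limits Fosb and Fosl2 most, with 3 and 7 reads in their lowest libraries.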
